A study of Sus scrofa with 10 samples.

Results

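Myoglobin, heme and iron genes were examined in the longissimus lumborum, the loin muscle, of pigs of the Alentejano (AL) and Bísaro (BI) breeds. The 9 genes were listed by name and by role: MB (myoglobin), ALAS1, UROD, PPOX and FECH (heme synthesis), HMOX1 (heme breakdown), FTH1 and FTL (iron storage) and TFRC (iron uptake). They were listed for the comparison of AL with BI over 10 pigs and for covariation with ALAS1, so both are given here as a description, with no p for any of these genes. Of the 9 genes, 7 were paired with an identifier among the 25880 genes of the table. MB and FTH1 were not paired and their counts were not analysed here.

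The 5 AL and 5 BI pigs were purebred castrated males, reared in a free ranged system on commercial diets, and the labels give each 150 kg as its carcass weight, where the study’s methods give that figure as the weight at slaughter. Muscle was taken at slaughter, and mRNA was sequenced as 1 stranded paired-end library per pig. The breeds thus shared sex, tissue, feeding and slaughter weight, and no treatment was applied. Pigs are named by breed and animal number (AL44, BI25). The values are gene counts divided by a size factor of each pig, called normalised counts below. The strand setting of the counting is not given in the sources used here, so a count can hold reads of the gene’s own strand, of the opposite strand or of both, for every gene below, and which was not tested. With muscle sampled in bulk, fewer cells of a type and less RNA per cell cannot be told apart.

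Heme is an iron-holding ring that muscle places in myoglobin, the oxygen store that gives meat its red colour, and in the cytochromes of the respiratory chain. Its synthesis starts in the mitochondrion with 5-aminolevulinate synthase, ALAS1 in most tissues and ALAS2 in red cell precursors, passes through the cytosol, where UROD acts, and ends in the mitochondrion with PPOX and with FECH, which inserts the iron. Iron enters the cell through the transferrin receptor TFRC and is stored in ferritin, a shell of FTH1 and FTL chains, and iron regulatory proteins bind hairpins called iron-responsive elements in the messengers of these genes: in iron shortage they hold back the translation of ferritin and keep the TFRC messenger stable.

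These elements are shown because they are what storage and uptake genes share in sequence. The search took a C, 5 bases, the loop CAGTGN with N any base but G, and 5 bases able to pair with the first 5 (G with T allowed), on the sense strand of the longest transcript of each protein-coding gene in the RefSeq annotation of Sscrofa11.1. Capitals mark the loop. The 5′ untranslated regions of FTL (chr6:54231194-54231222, plus strand) and FTH1 (chr2:9535175-9535203, plus strand) each held one.
FTL: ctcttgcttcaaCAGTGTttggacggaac
FTH1: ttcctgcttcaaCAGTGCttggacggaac

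The element stood in the 5′ untranslated region of 38 of 19560 genes (0.194%), among them also ALAS2 and SLC40A1 of the wider heme and iron lists. It was not found in the annotated TFRC transcript, which is marked partial and ends at chr13:133997554. In the 2000 bases past that end 4 elements followed, on the plus strand at chr13:133998466-133998494, chr13:133998876-133998904, chr13:133998941-133998969 and chr13:133998988-133999016.
TFRC a: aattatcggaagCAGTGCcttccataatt
TFRC b: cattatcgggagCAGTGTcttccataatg
TFRC c: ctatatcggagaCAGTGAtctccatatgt
TFRC d: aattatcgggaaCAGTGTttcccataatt

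Of 19560 genes, 113 (0.578%) had at least 1 such match in the 2000 bases past their annotated end, and TFRC was the only one with at least 2. For a gene with a complete model these bases lie past its transcript, so they can be unlike those past the partial TFRC model. In annotated 3′ untranslated regions the element stood in 71 genes (0.363%), and 0 genes had 3 or more there. A match is a description of these letters and no measurement of binding.

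Between 2298045 and 3343194 reads were counted on genes per pig, and 14681 genes had at least 1 read. The study reports far more sequenced reads per sample, nearly all aligned, so only a small part of them was counted on genes. Why was not tested, and a low count below need not mean low expression. A count of 3 reads, taken as the floor, was worth 2.47 to 3.39 normalised counts and covers counting error only. AL44 had the fewest reads and the lowest summed level of the muscle markers (8882, where the rest of AL had 15673 to 23639 and BI had 16757 to 32079), so results that turn on it are given with and without it. Of the 7 muscle markers 4 were paired (CKM, ACTA1, DES, MYBPC2), all far above the floor in every pig. Pairs of pigs within a breed differed far beyond counting noise (chi-square per degree of freedom 9.73 to 48.98), so no library was counted as a repeat of another.

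On the scale of normalised counts per kb of exon, PPOX was the highest of the 6 listed genes with both a count and a position, at 53.3 ± 5.47 (SD, n = 10 pigs). TFRC followed at 40.5 ± 10.5, FTL at 21.8 ± 7.55 and ALAS1 at 18.4 ± 19.7. UROD (1.30 ± 1.37) and FECH (1.02 ± 0.885) were far lower. The ranges over pigs overlapped between each gene and the next in this order, and ALAS1 had the widest, at 1.52 to 55.0. The highest UROD value (4.35) lay under the lowest FTL value (13.3). On average, a late step of heme synthesis and the iron receptor were thus counted more densely than the first step, while UROD and FECH were close to 0 in both breeds.

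**Figure D1:**
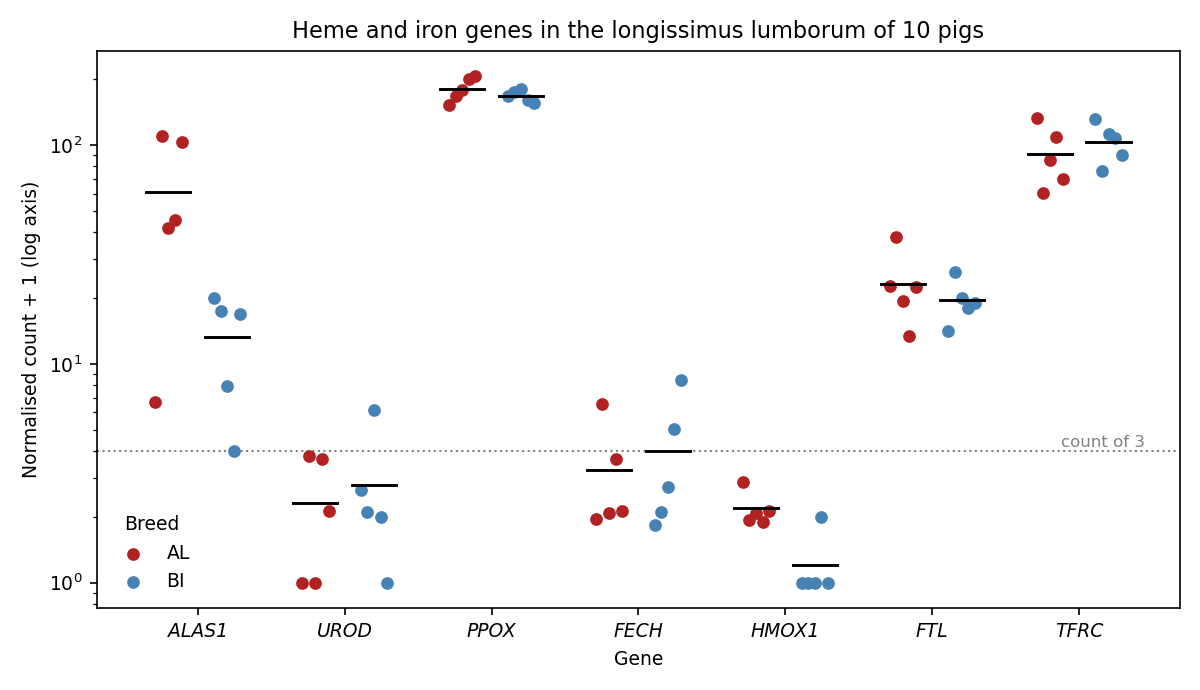
Normalised count plus 1 (log axis) of the 7 paired genes in each pig, AL in red and BI in blue, with the breed mean as a black bar and a dotted line at a count of 3. ALAS1 is the gene whose breeds lie furthest apart, with 4 AL pigs above all BI pigs and AL44 (5.66) below, while PPOX, FTL and TFRC intermix and UROD, FECH and HMOX1 lie about the dotted line.

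ALAS1 (ENSSSCG00000011437, chr13:34333263-34347435, plus strand), the first and rate-limiting enzyme of heme synthesis outside red cells, is typed as a transcribed pseudogene in the RefSeq annotation of this assembly. Its normalised count was 109 in AL46, 102 in AL63, 44.5 in AL52, 41.0 in AL49 and 5.66 in AL44. In the BI pigs it was 18.9 in BI25, 16.5 in BI34, 15.8 in BI42, 6.90 in BI36 and 3.01 in BI37. Thus 4 of 5 AL pigs stood above every BI pig, and AL44 stood below all BI pigs but BI37. These values rest on 6 to 117 reads in the AL pigs and 3 to 23 in the BI pigs.

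The mean of ALAS1 was 60.3 ± 43.8 in AL and 12.2 ± 6.89 in BI (SD, n = 5 each), and the ratio of the means was 4.93. On the scale of log2(normalised count + 1) the difference, AL minus BI, was 1.92 with a standard error of 0.67 and a 95% interval of 0.48 to 3.35. Without AL44 the AL mean was 74.0 ± 36.2 (n = 4), the ratio 6.05 and the log2 difference 2.59 with a standard error of 0.47. ALAS1 had been picked out by the study for its breed difference, so no p is given.

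By the model used here, limma across the 3807 genes that passed the filter on low counts, 0 of the 4 listed genes that passed it (ALAS1, PPOX, FTL, TFRC) were called at a Benjamini-Hochberg adjusted p under 0.05, beside 0.0263% of all genes. That fit included AL44. Without AL44 limma called 40 of the 3807 genes, and calls of the listed genes there are not given, as they were listed for this contrast. DESeq2 on the recovered reads called 1.44% of all genes. The study had listed ALAS1 by DESeq2 on these same counts, so a DESeq2 call of ALAS1 here is no separate evidence. A position of at least 4 AL pigs above every BI pig, as in ALAS1, was held by 4.54% of all genes, and a full lack of overlap, which none of the 4 listed genes had, by 1.08% with AL higher and 0.762% with BI higher. These counts are a description: the genes were listed for this contrast, and nothing is read from them.

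UROD (ENSSSCG00000003922, chr6:166327243-166330558, minus strand), the fifth enzyme of the pathway, was counted with 7 reads in the AL pigs together and 10 in the BI pigs. Its normalised count was 0 in AL44, AL49 and BI42, and the highest value was 5.17 in BI36, the only pig above the floor. FECH (ENSSSCG00000004541, chr1:106861628-106898407, minus strand), the last enzyme, had 12 reads in AL and 15 in BI, with 1 to 6 and 1 to 7 reads per pig, and 3 pigs stood above the floor. A breed difference of either gene was not detectable with so few counted reads, and no fold change is given.

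PPOX (ENSSSCG00000006361, chr4:89277984-89288946, minus strand), the oxidase before the last step, was the steadiest of the listed genes, with a coefficient of variation of 10.3% over the 10 pigs. Its normalised count in AL was 151 in AL44, 167 in AL46, 177 in AL49, 199 in AL52 and 206 in AL63. In BI it was 166 in BI25, 174 in BI34, 179 in BI36, 160 in BI37 and 155 in BI42. The 2 highest AL pigs stood above all BI pigs and the lowest stood below them, so the breeds overlapped. The means were 180 ± 22.6 in AL and 167 ± 9.78 in BI (SD, n = 5 each), and the log2 difference was 0.10 with a standard error of 0.15 (95% interval −0.21 to 0.41).

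HMOX1 (ENSSSCG00000039745), the inducible heme oxygenase that opens the ring and frees the iron, had 6 reads in the AL pigs together (1 or 2 in each) and 1 read in the BI pigs, in BI37. All 10 values were at or under the floor, so no fold change is given and no difference was detectable with so few counted reads.

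FTL (ENSSSCG00000003153, chr6:54231121-54232756, plus strand), the ferritin light chain, had normalised counts of 21.7 in AL44, 37.2 in AL46, 18.3 in AL49, 12.5 in AL52 and 21.5 in AL63. In BI they were 13.2 in BI25, 25.3 in BI34, 19.0 in BI36, 17.0 in BI37 and 18.0 in BI42. Both the highest and the lowest value belonged to AL pigs, AL46 and AL52, and the breeds overlapped fully. The means were 22.2 ± 9.15 and 18.5 ± 4.41 (SD, n = 5 each), with a log2 difference of 0.20 and a standard error of 0.30 (95% interval −0.43 to 0.83). Without AL46 that difference was −0.00, so its sign rested on 1 pig. FTL was counted with 14 to 40 reads per pig.

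TFRC (ENSSSCG00000011848, chr13:133976765-133997554, plus strand), the receptor for iron-loaded transferrin, had normalised counts of 132 in AL44, 108 in AL52, 84.2 in AL49, 69.0 in AL63 and 59.5 in AL46. In BI they were 130 in BI25, 111 in BI36, 107 in BI37, 88.7 in BI42 and 74.9 in BI34. The AL pigs held both extremes, and AL44, the lowest AL pig for ALAS1, was the highest for TFRC. The means were 90.5 ± 29.6 in AL and 102 ± 21.3 in BI (SD, n = 5 each), and the log2 difference was −0.21 with a standard error of 0.23 (95% interval −0.71 to 0.29).

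The order of pigs thus differed between the genes. Across the 10 pigs TFRC and ALAS1 ran opposite on the log2 scale, with a Pearson r of −0.71 and a Spearman rho of −0.62. With each breed's mean subtracted r was −0.71, and without AL46 and AL63, the 2 pigs farthest from the ALAS1 median, it was −0.38. PPOX ran with ALAS1 (r 0.61, rho 0.60), at 0.52 within breeds and 0.63 without those 2 pigs. FTL had r 0.30 and rho 0.16, which became −0.38 without the 2 pigs, so that its relation rested on them.

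For scale, r to ALAS1 had a median of −0.01 over the other 3806 genes and a 95th percentile of 0.69. An r above that of PPOX was held by 9.41% of these genes, above that of FTL by 29.8% and above that of TFRC by 93.8%. FTL and TFRC had r −0.72 and rho −0.49 with each other over the same 10 pigs. The share of gene pairs with such an r was not taken. A link of this r to iron or to the elements was not tested. Leaving out each pig in turn gave −0.87 to −0.52. Leaving out AL46 and AL52, here the 2 pigs farthest from the FTL median, gave −0.55. All these correlations share the same 10 libraries and their size factors. Across the pigs the total of reads had r 0.05 with ALAS1, 0.23 with TFRC, 0.25 with PPOX and −0.30 with FTL. The share of reads in each pig's 10 highest genes had r 0.25 with ALAS1, −0.36 with TFRC, 0.40 with PPOX and −0.08 with FTL. In the same order rho was 0.27, −0.04, 0.56 and −0.28. That share was lowest in AL44 (48.5%), and its part in the correlations was not tested.

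The genes most like ALAS1 over the 10 pigs were DNTTIP1 (r 0.96), which encodes a partner of histone deacetylases, IRF2BP2 (0.92), a transcriptional corepressor, FOS (0.92), the immediate early transcription factor, ENSSSCG00000034682 (0.91), with no paired symbol, and SLFN11 (0.91), of the Schlafen family. With breed means subtracted these became 0.94, 0.87, 0.93, 0.92 and 0.87. The 5 genes were picked as the highest of 3806 on these same pigs, and PDLIM7, with r 0.31 over the 10 pigs, also reached 0.93 with breed means subtracted, so these values are only a description. DNTTIP1 and SLFN11 were among the genes the study had listed for a breed difference, as ALAS1 was. DNTTIP1, at 0.862 to 5.77 in the BI pigs, had passed the filter on low counts through AL alone, the breed with the higher ALAS1 mean.

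FOS showed the pattern over the widest range. Its normalised count was 85.5 in AL46, 44.5 in AL52, 40.7 in AL63, 29.1 in AL49 and 1.89 in AL44. In BI it was 27.2 in BI25, 23.2 in BI42, 17.6 in BI34, 2.004 in BI37 and 1.72 in BI36. The 3 pigs lowest for FOS (BI36, AL44, BI37) were the 3 lowest for ALAS1. DNTTIP1 also had its lowest values in BI36, BI37, BI34 and AL44, between 0.862 and 2.83, under or near the floor.

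**Figure D2:**
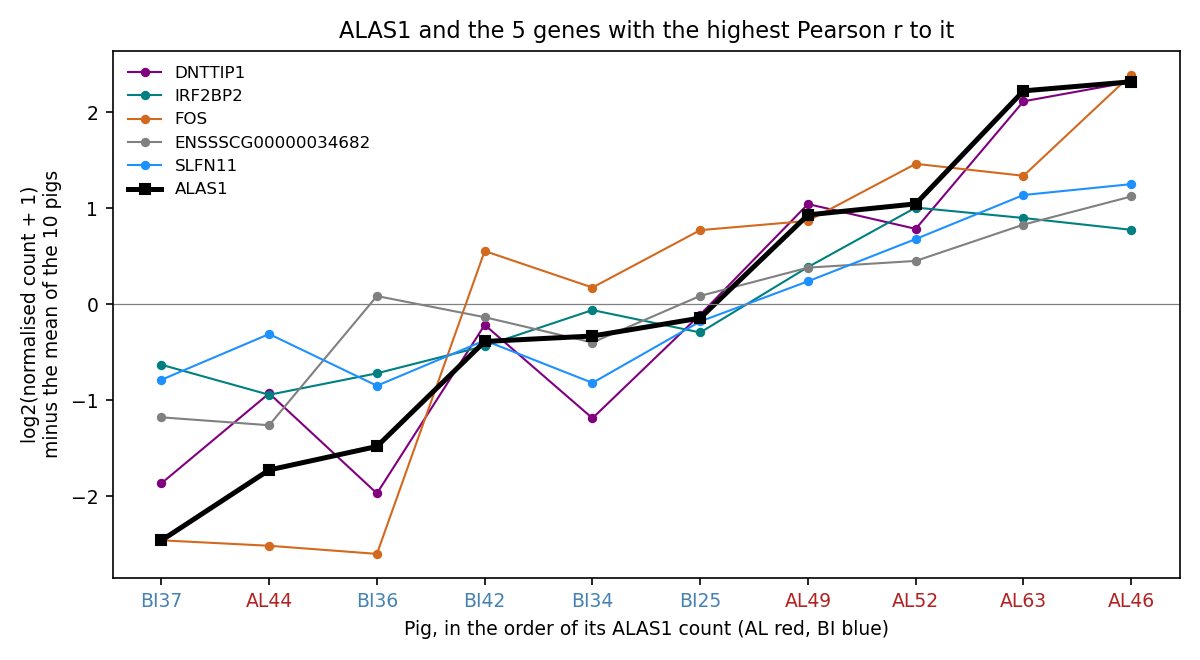
Difference from the mean of the 10 pigs in log2(normalised count + 1) for ALAS1 (black squares) and the 5 genes with the highest Pearson r to it, with the pigs in the order of their ALAS1 count. AL46 and AL63 lie at the upper end and BI37, AL44 and BI36 at the lower end for ALAS1. FOS spans a range as wide, with its values in BI37, AL44 and BI36 under the floor.

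The wider pathway lists held 92 other genes of heme synthesis, heme breakdown and transport, ALAS1 regulation, iron handling, iron-sulphur assembly, heme proteins of respiration and globins. Of these 79 were paired and 19 passed the filter, and limma called 0 of the 19 in either direction at a Benjamini-Hochberg adjusted p under 0.05, with 3 at an unadjusted p under 0.05. For all genes tested the share called was 0.0263%, and 9.40% had an unadjusted p under 0.05. The 19 genes had 11 positive and 8 negative log2 differences with a median of 0.05, beside −0.02 over all genes tested. Of the 19, 16 had a summed count of at least 50 in both breeds, with 11 positive and 5 negative differences and a median of 0.08. HPX, FDX1 and COX15 passed through BI alone, where they were higher, so their lower level in AL followed in part from the filter.

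Within heme synthesis 3 of 15 listed genes were tested, and none passed the test. The porphyrin transporter ABCB6 had a normalised count of 458 ± 91.8 in AL and 481 ± 71.5 in BI (SD, n = 5 each), a log2 difference of −0.08 (95% interval −0.44 to 0.28). The mitochondrial carrier SLC25A39 had 29.4 ± 13.0 and 32.2 ± 12.4, a log2 difference of −0.17, which became 0.06 without AL63 and 0.01 without BI42. ABCB6 and PPOX were thus well counted in the pathway, while ALAD, CPOX, UROS, UROD and FECH had means of a few counts or fewer.

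Among genes of heme breakdown and transport, HMOX2, the constitutive heme oxygenase, had 3235 ± 519 in AL and 3141 ± 798 in BI, a log2 difference of 0.06. HPX, which carries free heme in plasma, had 9.83 ± 5.58 and 15.3 ± 13.6, a log2 difference of −0.44 (95% interval −1.50 to 0.62) that became −0.04 without BI42. Of 10 listed regulators of ALAS1, 9 were paired and 3 passed the filter. PPARA (mean 3.57 over the 10 pigs) and PPARGC1A (1.52) were among those that did not. The 3 tested share exon bases with genes of the opposite strand, THRA for NR1D1, TRMT112 for ESRRA, and HNRNPA3 and AGPS for NFE2L2. The clock repressor NR1D1 (0.02), the nuclear receptor ESRRA (0.05) and the stress factor NFE2L2 (−0.01) had log2 differences close to 0. Their widest 95% interval, that of NFE2L2, ran from −0.80 to 0.78. Leaving out 1 pig changed the sign for HMOX2, NR1D1, ESRRA and NFE2L2, so no direction is read for them.

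In iron handling, ACO1, which becomes iron regulatory protein 1 when iron is short, had 44.8 ± 17.9 in AL and 25.4 ± 9.43 in BI. Its log2 difference of 0.79 (standard error 0.35) did not pass limma's test (Benjamini-Hochberg adjusted p = 0.507), and 3 of 5 AL pigs stood above all BI pigs. NCOA4, the receptor that sends ferritin to the lysosome, had 383 ± 85.6 and 452 ± 62.5, a log2 difference of −0.26. HJV, a coreceptor for hepcidin signals that muscle makes, had 16.3 ± 5.23 and 12.7 ± 4.67, a log2 difference of 0.37.

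ISCA2, a late factor of iron-sulphur assembly in mitochondria, was the only one of the 19 whose breeds did not overlap, at 71.8 to 105 in AL and 49.4 to 65.0 in BI. A lack of overlap was found in 1.84% of all genes tested, with AL higher in 1.08% and BI higher in 0.762%. Its log2 difference was 0.57 (standard error 0.18) and did not pass limma's test (Benjamini-Hochberg adjusted p = 0.278), with 0.106 to 0.620 over the alternatives. CIAO1, of the cytosolic assembly complex, had a log2 difference of 0.16, and FDX1, a ferredoxin, one of −0.29. COX15, which makes the heme a of cytochrome oxidase, had 5.85 ± 3.47 in AL and 11.6 ± 3.70 in BI, a log2 difference of −1.03, and FDX1 and COX15 had entered the test through BI alone. CYC1, the heme-holding cytochrome c1, had a log2 difference of 0.12, which became −0.07 without BI25.

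**Figure D3:**
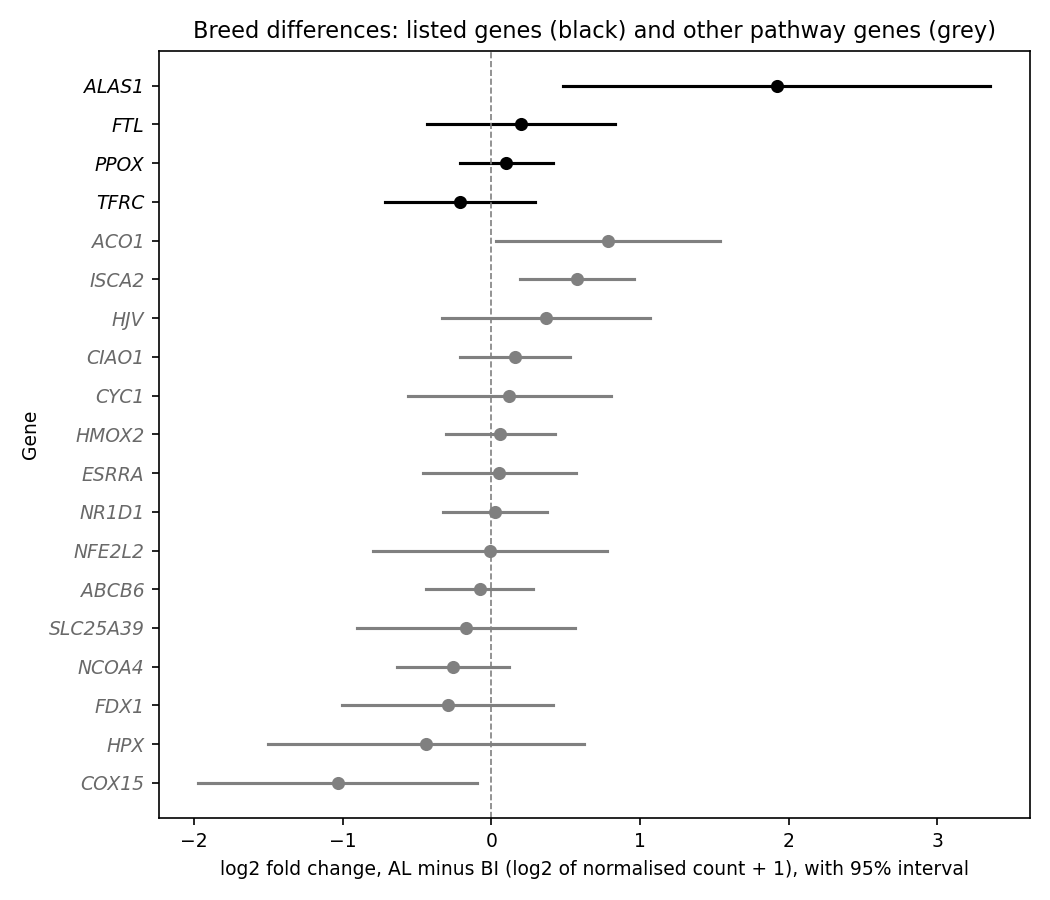
Difference between breeds, AL minus BI, in log2(normalised count + 1), with its 95% interval from limma (n = 5 each), for the 4 listed genes that passed the filter (black) and the named genes of the wider lists (grey). ALAS1 (1.92) is furthest right and has the widest interval, PPOX, FTL and TFRC span 0, and of the grey genes ACO1, ISCA2 and COX15 have intervals that leave out 0 before adjustment, COX15 as a gene that passed the filter through BI alone.

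Genes of other cells were set beside these values. The red cell genes HBB and ALAS2 were low in both breeds, HBB at 0 to 1.89 in AL and 1.06 to 4.94 in BI and ALAS2 at 4.37 ± 2.69 and 8.61 ± 2.42, and the summed red cell list (3 of 5 paired) was 3.39 to 10.2 in AL and 7.39 to 17.3 in BI. Slow fibres are rich in myoglobin and mitochondria. The sum of their markers (6 of 6 paired) was 761 to 1449 in AL and 447 to 797 in BI, which overlapped. By limma 5 of 6 had an unadjusted p under 0.05, beside 9.40% of all genes tested. At a Benjamini-Hochberg adjusted p under 0.05 limma called 0 of 6, beside 0.0263% of all genes tested. AL44, low in ALAS1, had a slow fibre sum of 1078, inside the AL range. The summed fibroblast markers (3 of 3 paired) were 26.7 to 80.9 in the other AL pigs, 9.44 in AL44 and 13.0 to 25.4 in BI. The same 4 AL pigs as for ALAS1 thus stood above all BI pigs, by a narrow gap. At least 4 AL pigs stood above every BI pig in 4.54% of all genes tested. The sum was mostly COL1A1 (mean 21.6 over the 10 pigs), while COL1A2 (3.55) and DCN (2.59) had means about the floor. Macrophage sums overlapped, at 246 to 382 in AL and 244 to 389 in BI, with CD163, MRC1 and LYZ at or near 0. These sums were mostly CSF1R (mean 276 over the 10 pigs), with CD68 at 26.7. The part of fibre type, connective tissue or blood in the ALAS1 values was not tested.

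Because the strand of the counted reads is not known, genes of the opposite strand were set beside the listed ones. PPOX is overlapped over 6152 bp by B4GALT3, a galactosyltransferase gene, with 238 bp of exon shared, and B4GALT3 had a mean normalised count of 257, or 90.5 per kb of exon beside 53.3 for PPOX. FTL lies tail to tail with GYS1, the muscle glycogen synthase, 1844 bp away, and GYS1 had 4728 normalised counts per kb of exon beside 21.8 for FTL. ALAS1 and TFRC had none within 5 kb. The nearest, named after their values were seen, were TLR9, 6009 bp from ALAS1 with 0 reads in every pig, and LOC100512560, 6205 bp from TFRC with no paired count.

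**Figure D4:**
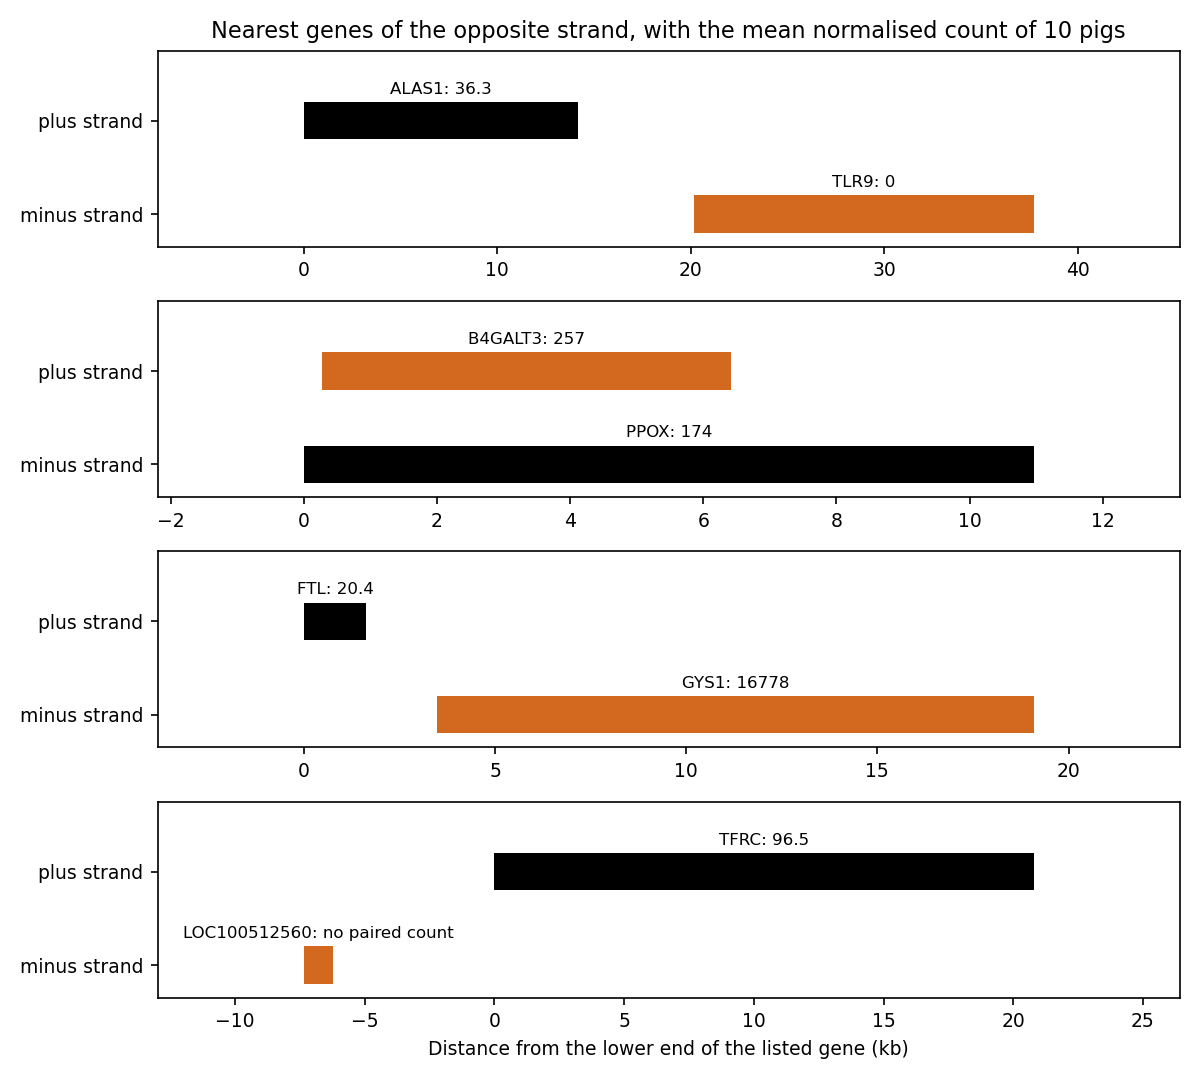
Position of ALAS1, PPOX, FTL and TFRC (black) and their nearest gene of the opposite strand (orange), in kb from the lower end of the listed gene, each with the mean normalised count of the 10 pigs. B4GALT3 (257) lies over PPOX and GYS1 (16778) ends close to the end of FTL, while TLR9 (0) and LOC100512560 lie over 5 kb from ALAS1 and TFRC.

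UROD had ZSWIM5 and LOC110255224 at 1241 bp and HECTD3 at 2726 bp, with mean counts of 0.0944 for ZSWIM5 and 3.24 for HECTD3 and no paired count for LOC110255224. FECH starts 83 bp from the noncoding LOC110260892, which had no paired count. FTH1 (chr2:9535051-9537979, plus strand), whose own count was not analysed, ends 103 bp from BEST1, which had a mean of 0.462.

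Over the heme and iron genes with at least 1 read and a position, the 22 overlapped by a gene of the opposite strand had a median of 7.87 normalised counts per kb of exon. The 23 with such a gene within 5 kb had a median of 1.37, and the 23 with none had 0.524. Of the last 23, TFRC and ALAS1 were the 2 highest, at 40.5 and 18.4. Across all such genes of the table, the heme and iron genes included, the medians were 1.04 (3524 genes), 0.960 (2995) and 0.319 (4101). The class with no such gene was again the lowest, while the overlapped and within-5-kb classes were close. At least 50 counts per kb of exon were held by 9.56%, 10.1% and 1.10% of these classes. Whether the counting used the gene’s own strand, the opposite one or both was not tested. If it did not use strand, reads of PPOX and of B4GALT3 cannot be told apart where their exons overlap, and if it used the opposite strand, the counts printed here are those of reads antisense to each gene.

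**Figure D5:**
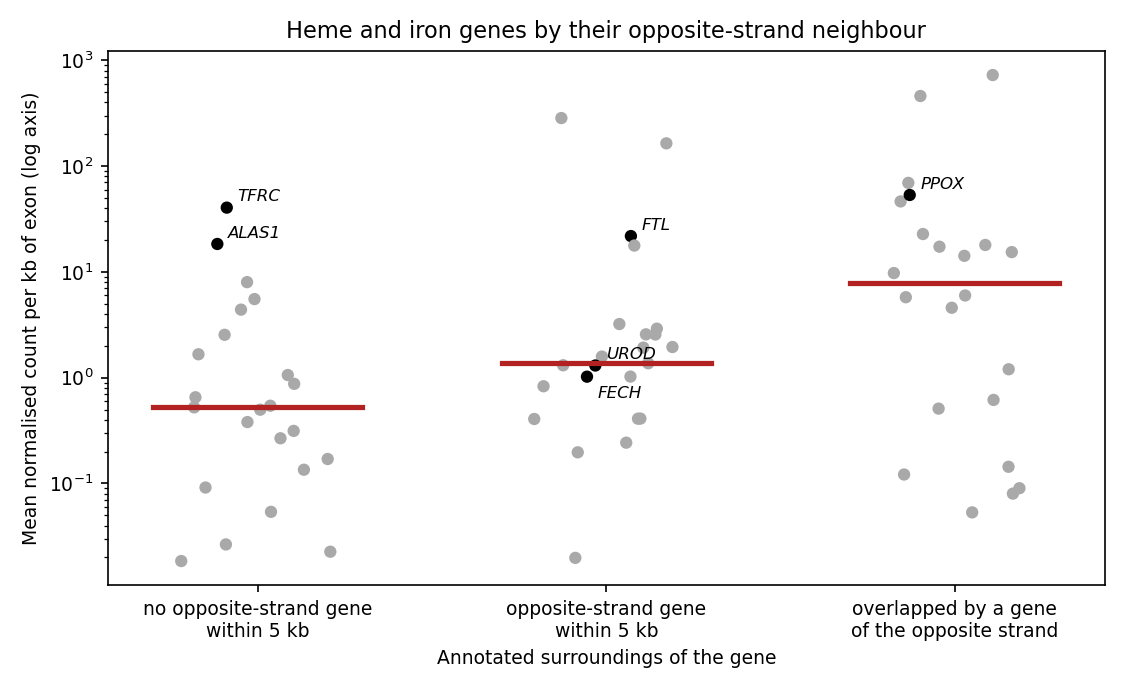
Mean normalised count per kb of exon (log axis) of the heme and iron genes with at least 1 read, by whether a gene of the opposite strand is absent within 5 kb, lies within 5 kb or overlaps, with the listed genes named in black and the class median as a red bar. The medians are 0.524, 1.37 and 7.87, and TFRC and ALAS1 are the highest genes of the first class.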

How the data were processed

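Per the labels and the study's methods, the authors used Trim Galore 0.5.0 for trimming, HISAT2 2.1.0 and SAMtools 1.9 for alignment to the Sscrofa11.1 assembly, HTSeq 0.11.1 for counting per gene (strand setting not given in the sources used here) and DESeq2 for scaling by a size factor per pig. The deposited values are this normalised signal, 1 column per pig and its mean, and 0 columns were left unmapped. The authors also deposited the log2 fold change, its standard error and Wald statistic as scores, and p-values of their own comparison, which were not used.

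Dividing each pig's values by its smallest value above 0 gave whole reads (within 0.001) for all values. Breeds (5 AL, 5 BI) were compared with limma 3.58.1 (trend, no covariate, R 4.3.3) on log2(normalised count + 1), on which changes of low genes appear too small, over the 3807 genes whose normalised counts summed to 50 or more in either breed, with Benjamini-Hochberg adjustment over all of them. Alternatives were pseudocounts of 0.1 and 10, other filters, a library size without the 10 highest genes, edgeR 4.0.16 (TMM) and DESeq2 1.42.0 on recovered reads, and each pig left out. The test was tested on simulated data. Symbols were paired with 14857 identifiers through gene name tables. Positions and exon lengths came from RefSeq and can differ from the gene models that the authors counted on. Listed genes, genes of the opposite strand within 5 kb, the 5 genes most like ALAS1 and, per pathway list, genes called or otherwise the 3 with the smallest unadjusted p are named; the same for MB was not possible, and some items are not reported here. The genes and lists were chosen with earlier results of these data known. Each pig was counted as 1 sample, no batch is given, and Python 3.11.15 drew the plots.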

Additional observations from a re-analysis of the deposited data

Results flagged for a closer look

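Dixon's ratio was taken in 54 breed groups of 27 genes. These were the 4 listed genes that passed the filter, the named pathway genes, B4GALT3, GYS1 and the 5 genes most like ALAS1. In 2 of the 54 groups, 1 of the 5 pigs lay far from the others of its breed (ratio above 0.71). Chance gives about 1 in 20 groups, or 2.7 here. For HPX, which carries free heme in plasma, BI42 had a normalised count of 39.1 and the nearest BI pig 12.4, and the log2 difference between breeds moved from −0.44 to −0.04 without it. For COX15, of heme a synthesis, BI37 had 18.0 and the nearest BI pig 11.0. None of the 4 listed genes that passed the filter had such a pig, ALAS1 in AL44 included. UROD, FECH and HMOX1, which lay about the floor, were not looked at in this way.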

How the results depend on the processing

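The log2 difference of ALAS1 kept its sign in all 17 alternatives that gave a value, from 1.41 with a pseudocount of 10 to 2.32 with DESeq2, and from 1.54 (without BI37) to 2.59 (without AL44) when 1 pig was left out. Leaving out 1 pig gave 0.05 to 0.16 for PPOX, −0.00 to 0.38 for FTL and −0.36 to −0.08 for TFRC. Over all genes limma called 1 gene (INTS11), with a pseudocount of 10 it called 2, with no filter 40, and with both breed means at 50 or more 0 of 1513 (112 at an unadjusted p under 0.05), while edgeR called 1 and DESeq2 55. Leaving out 1 pig gave 1 to 40 calls, with 40 without AL44, 4 without AL52 or BI37 and 3 without BI36. Calls among the pathway genes were 0 in all 18 alternatives, leaving out 1 pig included (0 to 0), which tested 19 genes each except the stricter filter (10), the filter over the 10 pigs together (25) and no filter (69).

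Without the 2 pigs farthest from the ALAS1 median r to ALAS1 was −0.38 for FTL and −0.38 for TFRC. Leaving out 1 pig gave −0.11 (without AL46) to 0.49 for FTL, 0.45 to 0.77 for PPOX and −0.79 to −0.60 for TFRC. The causes of these shifts were not tested. No paired analysis was possible because the animal numbers are not shared between the breeds. UROD, FECH and HMOX1 lay about the floor of 3 reads, so differences in them were not detectable with so few counted reads.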
